A study of Mus musculus with 15 samples.

Results

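CXC chemokines are small secreted proteins that attract leukocytes, and 6 of them were followed in RAW 264.7 macrophages given LPS and extracellular vesicles (EVs) from irradiated mice. The 6 genes form 2 families by receptor. Cxcl9, Cxcl10 and Cxcl11 encode ligands of CXCR3, and Cxcl1, Cxcl2 and Cxcl3 encode ligands of CXCR2. They were taken by gene symbol from the 561 genes of the nanoString nCounter Mouse Immunology panel, an assay in which barcoded probes are hybridized to mRNA and counted one by one, with no amplification step. Of the 6 genes, 5 had a row in the table. Cxcl2 was not analysed here. Only Cxcl10 and Cxcl11 passed the filter on low values, which required 20 counts or more on average across the 15 samples and which 269 genes of the panel passed.

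CXCR3 ligands are known as interferon-induced chemokines that draw activated T cells and NK cells. Cxcl9 depends mostly on interferon-γ, whereas Cxcl10 and Cxcl11 also respond to type I interferons, which macrophages make when LPS engages TLR4. CXCR2 ligands draw neutrophils, and macrophages commonly induce them through NF-κB in response to LPS and IL-1.

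RAW 264.7 is a macrophage-like line from a tumor of a BALB/c mouse. The EV donors were female C57BL/6J mice, 6 to 8 weeks old. They were sham mice, or mice at 3 or 7 days after whole-body ionizing radiation (WBIR) with 2 or 9 Gy, and plasma EVs were pelleted by differential centrifugation. All 5 groups of macrophages received LPS with EVs for 24 hours, so the control was sham EVs with LPS, and no group without LPS or without EVs was analysed here. Each group had 3 samples. The labels do not say whether these were separate cultures or separate EV isolations, so p-values measure the spread between these samples, which may be technical. The EV number per exposure and the lysis reagent differ between the labels and the study's methods. In the 9 Gy day 3 group, replicates 1 and 2 have titles for day 3 but a label for day 7, and the title was followed.

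Total counts ranged from 43176 to 87899 in the 9 Gy day 3 group and from 453178 to 837995 in the other groups. Counts were therefore divided by the geometric mean of 14 housekeeping genes and are given as normalized counts. One count was worth 3.30 to 5.93 normalized counts in the 9 Gy day 3 group and 0.471 to 0.915 elsewhere. The 7 macrophage markers on the panel had 20 to 5221 counts outside the 9 Gy day 3 group. Each gene is read by its own probe, so levels were compared between samples and not between genes.

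All 6 genes lie on mouse chromosome 5 in the RefSeq annotation of GRCm38.p6. In order along the chromosome, Cxcl3, Cxcl1 and Cxcl2 are near neighbors, then come 41 other genes, and then Cxcl9, Cxcl10 and Cxcl11. The annotation of this C57BL/6J assembly lists Cxcl11 as a transcribed pseudogene and the other 5 as protein-coding genes. The 250 bases before the start of a gene are shown for the 4 measured members with an entry among the RefSeq promoter sequences. They were searched for elements of interferon and NF-κB responses. Each is written from 5′ to 3′ on the strand of its gene. Capitals mark matches to ISRE, the interferon-stimulated response element (searched as GAAANNGAAA on both strands), or to the κB consensus bound by NF-κB.
Cxcl10, GRCm38.p6 chr5:92348890-92349139, reverse strand: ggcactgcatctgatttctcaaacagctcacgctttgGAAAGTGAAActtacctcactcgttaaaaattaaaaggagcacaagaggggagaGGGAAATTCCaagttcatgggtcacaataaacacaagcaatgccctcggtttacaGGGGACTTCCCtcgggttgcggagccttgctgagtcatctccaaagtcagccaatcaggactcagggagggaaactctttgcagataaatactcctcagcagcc
Cxcl9, GRCm38.p6 chr5:92328080-92328329, reverse strand: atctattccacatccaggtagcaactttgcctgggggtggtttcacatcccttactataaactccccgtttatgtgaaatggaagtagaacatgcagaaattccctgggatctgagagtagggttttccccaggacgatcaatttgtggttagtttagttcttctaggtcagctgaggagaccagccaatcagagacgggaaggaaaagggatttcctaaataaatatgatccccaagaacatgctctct
Cxcl1, GRCm38.p6 chr5:90890995-90891244, forward strand: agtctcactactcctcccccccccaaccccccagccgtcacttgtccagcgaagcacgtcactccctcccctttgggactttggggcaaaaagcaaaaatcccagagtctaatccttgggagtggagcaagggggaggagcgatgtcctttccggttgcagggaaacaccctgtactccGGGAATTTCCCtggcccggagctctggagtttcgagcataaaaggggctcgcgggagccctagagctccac
Cxcl3, GRCm38.p6 chr5:90785851-90786100, forward strand: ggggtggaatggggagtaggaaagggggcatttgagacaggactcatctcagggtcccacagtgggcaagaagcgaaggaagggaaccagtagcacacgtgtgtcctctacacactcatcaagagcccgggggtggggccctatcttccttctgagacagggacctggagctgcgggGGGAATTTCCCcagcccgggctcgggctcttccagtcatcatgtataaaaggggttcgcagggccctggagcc

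The Cxcl10 window held an ISRE match from 213 to 204 bases before the start, a κB match from 159 to 150 bases before it, and overlapping κB matches from 104 to 94 bases before it. Among these 4 genes it alone held both kinds. The Cxcl1 window held overlapping κB matches on both strands from 71 to 61 bases before the start, and the Cxcl3 window had them from 73 to 63 bases before it, with the same 11 letters. The Cxcl9 window held neither, and the interferon-γ activated site (GAS, searched as TTCNNNGAA) matched none of the 4. Across 32851 RefSeq windows of 250 bases, ISRE matched in 2.98%, GAS in 7.02% and κB in 7.25%. These matches describe letters only, and binding was not measured.

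To determine whether the chemokine response to LPS differed with the EVs received, each irradiated group was compared with sham EVs. Cxcl10 was higher with EVs from mice that received 9 Gy, about 5-fold at day 3 and 4-fold at day 7, and Cxcl11 was higher by a smaller amount. Neither passed the test with EVs from mice that received 2 Gy. In a bulk lysate, more cells that make a chemokine and more mRNA per cell cannot be told apart. Cxcl9, Cxcl1 and Cxcl3 had at most 23 counts in any sample, did not pass the filter and were tested only in a fit without it.

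Cxcl10 encodes IP-10, a CXCR3 ligand made by macrophages in response to interferons and LPS. Its normalized counts with sham EVs were 1381, 1927 and 1334 in replicates 1 to 3. They were 11245, 8660 and 3339 with EVs isolated 3 days after 9 Gy, and 8011, 8610 and 3033 with EVs isolated 7 days after 9 Gy. All 6 samples given 9 Gy EVs were above all 9 other samples, the highest of which was 2264. Of the tested genes, 7.81% were separated in this way. Replicate 3 was the lowest sample of both 9 Gy groups and lay far below the other replicates.

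**Figure D1:**
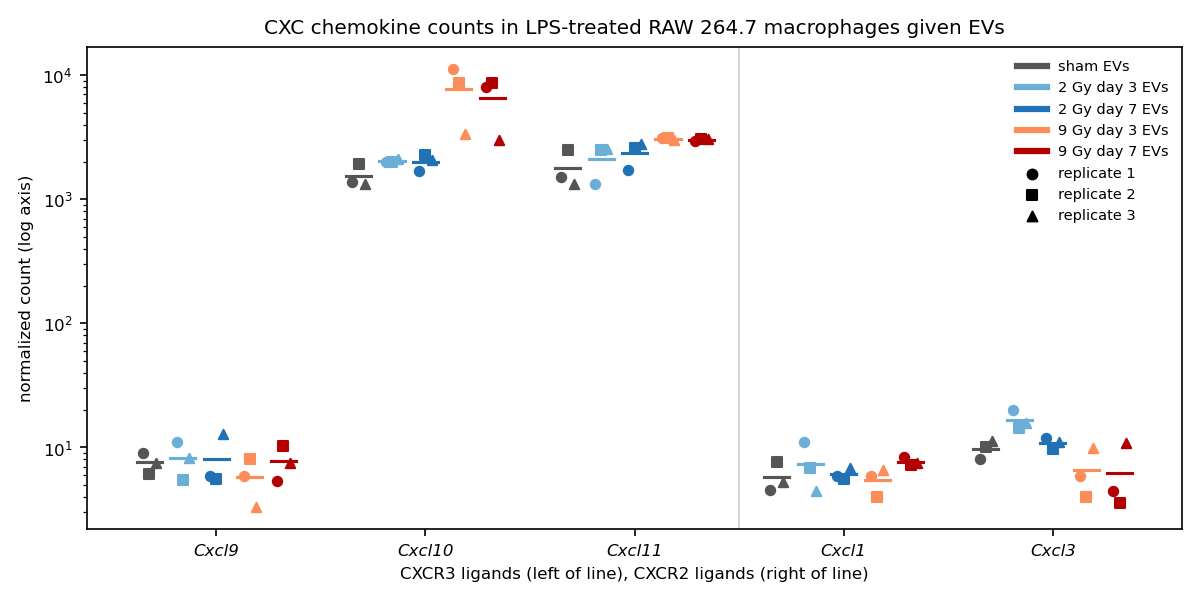
Normalized counts (log axis) of the 5 measured CXC chemokines in each sample, with CXCR3 ligands left of the line and CXCR2 ligands right of it. Colors give the EV group, marker shapes the replicate and bars the group mean of 3 samples; the 9 Gy samples of Cxcl10 all lie above 2264, the highest sample of the other groups.

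The mean of Cxcl10 rose from 1548 ± 330 (SD, n = 3) with sham EVs to 7748 ± 4031 at day 3 and 6551 ± 3062 at day 7 after 9 Gy. The log2 fold changes were 2.32 (SE 0.41, 5.0-fold, adjusted p = 0.000359, quasi-likelihood test in edgeR) and 2.08 (SE 0.41, 4.23-fold, adjusted p = 0.000602). The median change of all tested genes ran the other way, at -0.46 and -0.45. Cxcl10 ranked 3rd and 5th from the highest change among the 269 genes. As a share of all panel counts, Cxcl10 took 0.289% ± 0.0481 with sham EVs, 3.04% ± 1.69 at day 3 and 2.76% ± 1.49 at day 7 (SD, n = 3).

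Cxcl11 encodes I-TAC, which binds CXCR3 tightly. Its normalized counts with sham EVs were 1521, 2518 and 1319. With 9 Gy EVs they were 3136, 3119 and 2985 at day 3, and 2975, 3050 and 3071 at day 7. The 6 samples given 9 Gy EVs lay close together and above all 9 others, but the margin was narrow, since the highest of the others was 2808. The spread was on the side of the other groups, with an SD of 642 with sham EVs against 82.4 and 50.9 in the 9 Gy groups.

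The log2 fold change of Cxcl11 was 0.79 (SE 0.27, 1.72-fold, adjusted p = 0.0248, edgeR) at day 3 and 0.76 (SE 0.27, 1.70-fold, adjusted p = 0.0234) at day 7 after 9 Gy. Among the 269 genes it ranked 28th and 24th from the highest. Both tested members were called higher at both days, where 52.4% of tested genes were called in either direction and 11.2% higher at day 3, and 61% in either direction and 11.9% higher at day 7. All 3 samples were above all 3 sham samples for both members at both days, as for 11.9% of tested genes at day 3 and 12.6% at day 7. The call of Cxcl11 was lost at day 3 without replicate 1 or replicate 3 of sham EVs (log2 fold changes 0.68 and 0.61, adjusted p = 0.0877 and 0.101, edgeR) and without replicate 1 or 2 of the 9 Gy day 3 group (adjusted p = 0.0567 and 0.0594). At day 7 it was lost without the same sham samples (0.66 and 0.59, adjusted p = 0.0858 and 0.103).

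The size of the Cxcl10 change at day 3 rests on the replicates with the conflicting day label. With those 2 samples left out, only replicate 3 remained, and neither member was called with a single sample in the group. The log2 fold change at day 3 was then 1.11 for Cxcl10 (adjusted p = 0.0668, edgeR) and 0.74 for Cxcl11 (adjusted p = 0.179), the latter close to its value with all samples. At day 7 the call of Cxcl10 held in all 31 alternatives that were run, with log2 fold changes from 1.84 to 3.26, and Cxcl11 was called in 29 of 31. Some alternatives, such as leaving out a sample of a group not compared, left the Cxcl10 estimate at 2.08 and could hardly change the call.

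The scaling set the size of these changes but not their direction or call at either 9 Gy day, with scaling to housekeeping genes, the median, TMM or the total count, with only the housekeeping genes of higher counts, or with DESeq2's own size factors. With TMM scaling, which assumes that most genes do not change, Cxcl10 was higher by 2.79 and 2.58 on the log2 scale at days 3 and 7 after 9 Gy, and Cxcl11 by 1.26 and 1.25. With scaling to the total count, the values were 3.39 and 3.26 for Cxcl10 and 1.83 and 1.89 for Cxcl11. The median of all tested genes moved to 0.01 and 0.03 with TMM and to 0.56 and 0.65 with the total count. Relative to that median, Cxcl10 was higher by 2.78 and 2.53 with housekeeping scaling, by 2.77 and 2.55 with TMM and by 2.84 and 2.61 with the total count. The share of tested genes called higher against sham EVs, which is the background of these calls, depended on the scaling too. At day 3 it was 11.2% with housekeeping scaling, 21.9% with TMM and 45% with the total count, and at day 7 it was 11.9%, 27.9% and 53.2%.

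**Figure D2:**
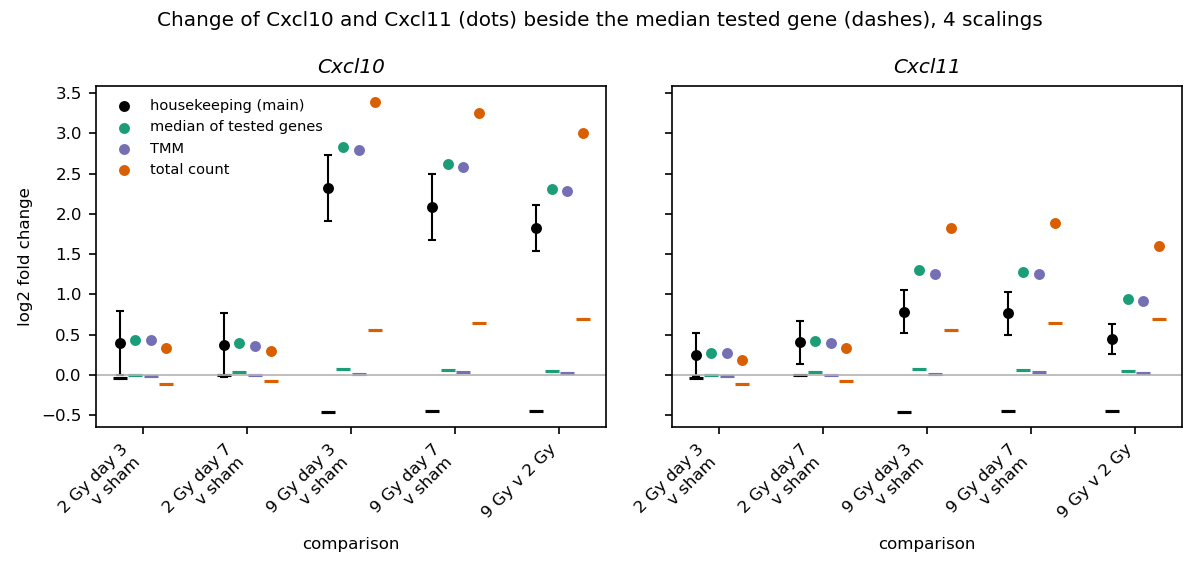
Log2 fold changes of Cxcl10 (left) and Cxcl11 (right) in 5 comparisons under 4 scalings, with the SE from edgeR on the values with housekeeping scaling; dashes give the median of all 269 tested genes under the same scaling. Each of the 4 scalings placed both genes above that median in the 9 Gy comparisons, and Cxcl10 at day 3 changed by 2.32 to 3.39.

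With EVs isolated after 2 Gy, neither gene passed the test against sham EVs. Cxcl10 counted 1991, 2016 and 2099 at day 3 and 1689, 2264 and 2057 at day 7. All 3 day 3 samples lay above the sham samples, as for 4.83% of tested genes, and 2 of 3 did at day 7. The log2 fold changes were 0.40 (SE 0.39, adjusted p = 0.998, edgeR) and 0.37 (SE 0.39, adjusted p = 0.944).

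For Cxcl11 the counts were 1338, 2474 and 2560 at day 3 and 1709, 2575 and 2808 at day 7 after 2 Gy. Replicate 1 was the low sample both times, and both groups overlapped with sham EVs. The log2 fold changes were 0.25 (SE 0.27, adjusted p = 0.998, edgeR) and 0.40 (SE 0.27, adjusted p = 0.944). Without each sample in turn they ran from 0.073 to 0.58 at day 3 and from 0.23 to 0.74 at day 7, never past the threshold. Across the panel 0% of tested genes were called at either day after 2 Gy with edgeR, although 7 and 1 genes were under 0.05 before adjustment and DESeq2 called 1 and 0.

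To test the radiation dose directly, both 9 Gy groups were compared with both 2 Gy groups. Cxcl10 was higher with 9 Gy EVs, with a log2 fold change of 1.82 (SE 0.29, 3.53-fold, adjusted p = 8.08e-05, edgeR). For Cxcl11 the change was 0.45 (SE 0.19, 1.36-fold, adjusted p = 0.0494), just past the threshold of 0.05, and it passed in only 16 of 31 alternatives. Its size depended on the scaling, at 0.92 (adjusted p = 0.000468, edgeR) with TMM and 1.60 (adjusted p = 2.49e-06) with the total count. In this comparison 67.7% of tested genes were called in either direction and 15.6% higher, and the share called higher was 33.1% with TMM and 62.5% with the total count.

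The day of EV isolation made no difference that passed the test. Between days 7 and 3 after 9 Gy, the log2 change was -0.24 (SE 0.39, adjusted p = 0.986, edgeR) for Cxcl10 and -0.02 (SE 0.27) for Cxcl11. After 2 Gy it was -0.02 (SE 0.39) for Cxcl10 and 0.15 (SE 0.27) for Cxcl11. Within either dose, 0% of tested genes were called between the days, with 6 genes at 9 Gy and 4 at 2 Gy under 0.05 before adjustment and 0 called by DESeq2. A p that misses the threshold does not show that the days act alike.

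Same-numbered samples of the 9 Gy days were set against each other. Over the tested genes, their chi-square over degrees of freedom was 4.15, 4.34 and 5.69, whereas replicates of 9 Gy day 7 differed from each other by 17.8, 133 and 192 and those of 9 Gy day 3 by 2.56, 21.9 and 19.9. The measure grows with depth, which is low at day 3, so these values are not on one footing. It was not taken for samples of different number across the days, so it cannot show a match by number. By correlation of deviations, replicate 1 of day 3 was nearer to replicate 2 of day 7 (0.443) than to replicate 1 (0.354). Whether the 9 Gy groups hold 6 independent samples was not tested, and the results at both days may not be independent of each other.

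Cxcl10 and Cxcl11 were set against each other by the ratio of their raw counts within each sample, where scaling cancels. The ratio of Cxcl10 to Cxcl11 counts was 0.908, 0.765 and 1.01 with sham EVs. It was 3.59, 2.78 and 1.12 at day 3 and 2.69, 2.82 and 0.987 at day 7 after 9 Gy. Replicates 1 and 2 of both groups lay above the range of the other 9 samples, which was 0.732 to 1.49, and replicate 3 of both lay within it. On the log2 scale the ratio exceeded its sham mean by 1.33 (SD 0.88, n = 3) at day 3 and 1.14 (SD 0.86, n = 3) at day 7. The difference between the 2 genes was not tested.

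**Figure D3:**
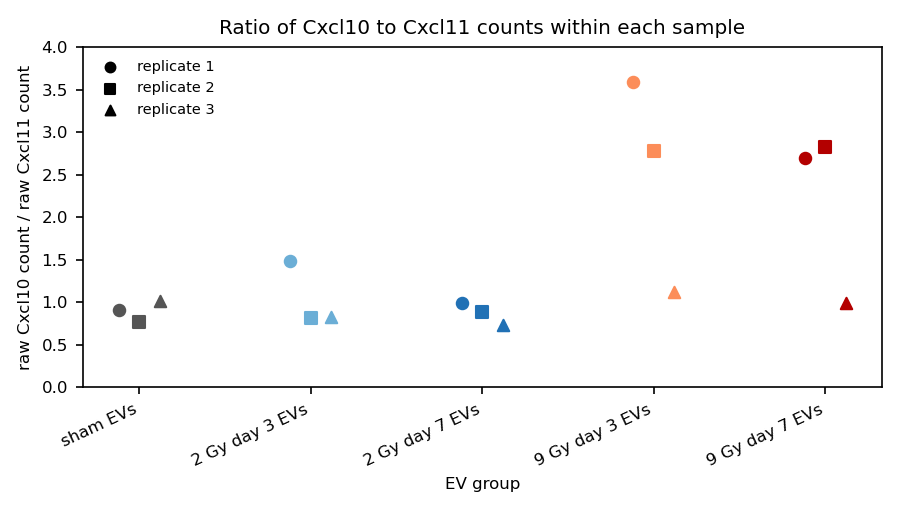
Ratio of raw Cxcl10 to raw Cxcl11 counts in each of the 15 samples, by EV group, with marker shapes for the replicate. Replicates 1 and 2 of both 9 Gy groups lie between 2.69 and 3.59, and replicate 3 of both lies at 1.12 and 0.987, among the other samples.

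Replicate 3 of each 9 Gy group differed from the other replicates in other genes too. Of the 269 tested genes, 6 (2.23%) were less than 0.5 times the mean of replicates 1 and 2 at both days, Cxcl10 among them, and 12 (4.46%) were more than 2 times that mean at both days. Cxcl10 in replicate 3 was 0.335 times the mean of replicates 1 and 2 at day 3 and 0.365 times at day 7. Ifnb1, which encodes interferon-β, was at 0.262 and 0.328 times. Irf1, a transcription factor induced by interferons, was at 0.179 and 0.205 times. The inverse held for the interleukin-1 genes, with Il1b at 7.69 and 7.06 times and Il1a at 4.92 and 6.30 times the other replicates.

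Cxcl11 in replicate 3 was at 0.955 and 1.02 times the mean of the other replicates. Ifih1, which encodes the RNA sensor MDA5, was at 0.526 and 0.552 times, and Tnf was at 0.519 and 0.709 times. Ifih1 was named for a profile near that of Cxcl10 over these same samples, so a low replicate 3 is part of that choice. Irf7, which amplifies type I interferon production, was higher in replicate 3, at 1.81 and 1.69 times, and Ifngr2, a chain of the interferon-γ receptor, was at 1.60 and 1.58 times. Cxcl10, Ifnb1 and Irf1 were thus low together in replicate 3 of both 9 Gy groups, and Cxcl11 was near its level in the others, which describes 1 sample a group and was not tested. Without replicate 3 of both groups, an alternative chosen after seeing the data, the log2 fold change of Cxcl10 against sham EVs was 2.68 at day 3 and 2.42 at day 7, and that of Cxcl11 was 0.81 and 0.75.

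**Figure D4:**
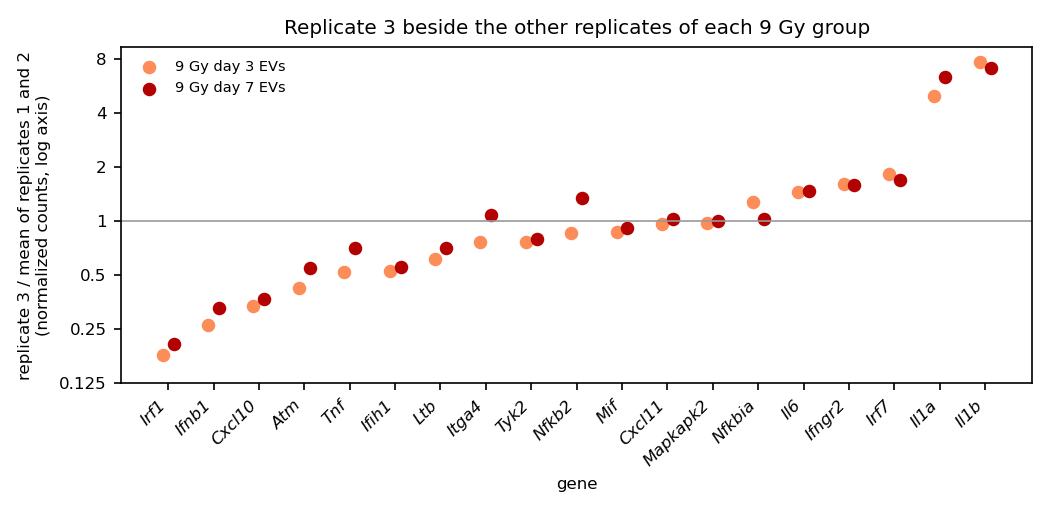
Normalized count of replicate 3 divided by the mean of replicates 1 and 2 (log axis) in the 9 Gy day 3 and day 7 groups, for Cxcl10, Cxcl11, named genes of interferon and NF-κB signaling, and the genes with the nearest profiles. Cxcl10, Ifnb1 and Irf1 lie at 0.365 or below, Cxcl11 lies near 1, and Il1a and Il1b lie at 4.92 or above.

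Cxcl9, Cxcl1 and Cxcl3 were counted at low values in every group. Cxcl9, which encodes MIG, had raw counts of 10, 8 and 10 with sham EVs. They were 12, 8 and 11 at day 3 and 8, 8 and 15 at day 7 after 2 Gy. With 9 Gy EVs they were 1, 2 and 1 at day 3 and 11, 20 and 16 at day 7. The low values at day 3 came with the low totals of that group, in which 190 to 246 of the 561 genes were listed at the lowest count of 1.

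Cxcl1 encodes KC, a neutrophil attractant. Its raw counts were 5, 10 and 7 with sham EVs, 12, 10 and 6 at day 3 after 2 Gy, and 8 in all 3 samples at day 7. With 9 Gy EVs they were 1, 1 and 2 at day 3 and 17, 14 and 16 at day 7. The day 7 raw counts were above all sham samples, but the housekeeping counts of that group were higher too, and after scaling only 1 of its 3 samples remained above the sham range.

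Cxcl3 encodes another CXCR2 ligand, also called DCIP-1. Its raw counts were 9, 13 and 15 with sham EVs, 22, 21 and 21 at day 3 after 2 Gy, and 16, 14 and 13 at day 7. With 9 Gy EVs they were 1, 1 and 3 at day 3 and 9, 7 and 23 at day 7. After scaling, all 3 samples given EVs isolated 3 days after 2 Gy lay above the sham range, at 16.7 ± 3.05 normalized counts against 9.81 ± 1.59 with sham EVs (SD, n = 3), as did 4.28% of all 561 genes. Replicate 3 was the high sample of both 9 Gy groups.

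**Figure D5:**
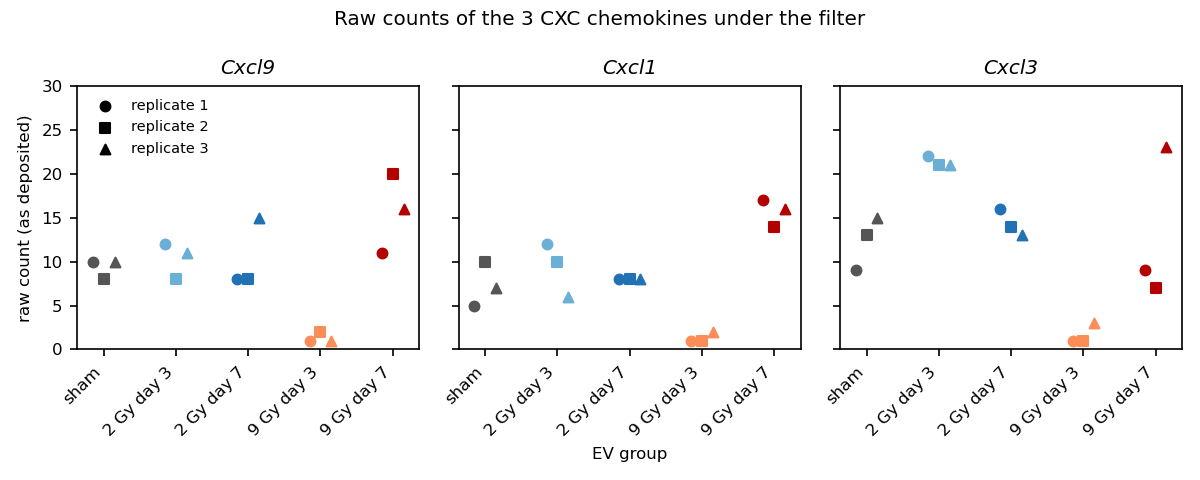
Raw counts of Cxcl9, Cxcl1 and Cxcl3 in each sample by EV group, with marker shapes for the replicate. Outside the 9 Gy day 3 group the values run from 5 to 23, and in that group from 1 to 3.

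For comparison, 15 markers of T cells, B cells, NK cells and neutrophils, which a macrophage line should lack, had a median of 9 counts outside the 9 Gy day 3 group. The 3 low chemokines had a median of 11 there. All of these markers but Cd8a (74 to 175 counts) stayed at or below 34. Each probe can have its own background, and the negative control probes were not analysed here, so whether Cxcl9, Cxcl1 and Cxcl3 were expressed could not be told from these counts. The summed normalized level of the 15 markers was 182 to 228 with sham EVs and 103 to 120 with EVs isolated 7 days after 9 Gy.

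When all 561 genes were fitted without the filter on low values, none of these 3 chemokines passed the test between any irradiated group and sham EVs. The largest changes against sham EVs were in Cxcl3, with a log2 fold change of 0.73 at day 3 after 2 Gy (SE 0.31, adjusted p = 0.994, edgeR) and -0.63 at day 7 after 9 Gy (SE 0.35, adjusted p = 0.144). Between 9 Gy and 2 Gy EVs, Cxcl3 was called lower in that fit, with a log2 fold change of -1.0 (SE 0.34, adjusted p = 0.0264), as were 30.8% of the 561 genes. In the same fit, Cxcl1 changed by -0.02 (SE 0.32) and Cxcl9 by -0.27 (SE 0.40), and Cxcl11 missed the threshold (adjusted p = 0.0625).

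The families were set side by side as the mean log2 level of the CXCR3 ligands minus that of Cxcl1 and Cxcl3, relative to sham EVs. The difference was -0.28 (SD 0.51) and 0.14 (SD 0.34) at days 3 and 7 after 2 Gy, and 1.21 (SD 0.98) and 1.11 (SD 0.74) at days 3 and 7 after 9 Gy, with n = 3 in each. The 9 Gy samples ran from 0.13 to 2.05 at day 3 and from 0.33 to 1.81 at day 7. The CXCR2 ligands and Cxcl9 enter it with at most 23 counts, and the negative value at day 3 after 2 Gy came with higher Cxcl3 and Cxcl1 values, not with lower Cxcl10 or Cxcl11. In the 9 Gy day 3 group, Cxcl1, Cxcl3 and Cxcl9 had only 1 to 3 counts, at or next to the lowest deposited count of 1. The value of 1.21 therefore rests on that limit and does not measure a shift between the families. With counts under 20 set to 20 the difference at day 3 after 2 Gy changed sign, to 0.21, and that at day 3 after 9 Gy was -0.60, a value that the floor itself sets, since 20 counts are worth more normalized counts in that group and replace both CXCR2 ligands but only Cxcl9 of the CXCR3 ligands.

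The remaining CXC genes of the panel did not extend either family. The 9 other chemokine and receptor genes with a row, Ppbp, Cxcl12, Cxcl13, Cxcl15, Cxcr1, Cxcr2, Cxcr4, Cxcr5 and Cxcr6, had raw counts of 1 to 18. Cxcr3, the receptor of the interferon-induced family, had 13 to 43 counts outside the 9 Gy day 3 group. Its mean of 19.3 fell under the filter.

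Among 25 genes of interferon signaling, 23 had a row and 17 were tested. With 9 Gy EVs and housekeeping scaling, 2 were higher, 7 lower and 8 not called at day 3, and 2 were higher, 10 lower and 5 not called at day 7. Their median log2 change was -0.55 at day 3 and -0.62 at day 7, beside -0.46 and -0.45 over all tested genes. Over all 269 tested genes, 30 were higher and 111 lower at day 3, and 32 were higher and 132 lower at day 7. At day 3 the list was called about as often as the panel. With TMM the list had 2 higher and 4 lower at day 3 and 3 higher and 6 lower at day 7, beside 59 and 60 and then 75 and 76 over all tested genes. With the total count the split turned, to 7 higher and 1 lower at day 3 and 7 higher and 2 lower at day 7, as it did over all tested genes, with 121 higher and 33 lower at day 3 and 143 and 31 at day 7. With 2 Gy EVs 0 of the 17 were called at either day.

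The 2 interferon signaling genes that rose with housekeeping scaling were Ifnb1 and Tyk2. The raw counts of Ifnb1 were 17, 40 and 10 with sham EVs, 92, 97 and 37 at day 3 and 722, 710 and 250 at day 7 after 9 Gy. Its mean normalized count was 17.9 with sham EVs, 352 at day 3 and 279 at day 7 (adjusted p = 0.000158 and 0.000167, edgeR). Tyk2, a kinase of the interferon receptor, changed by 1.28 (SE 0.26, adjusted p = 0.00109, edgeR) at day 3 and 0.76 (SE 0.22, adjusted p = 0.00942) at day 7 on the log2 scale. Both were higher with scaling to housekeeping genes, the median, TMM or the total count.

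Among those that fell, Irf7, the factor that amplifies type I interferon production, changed by -2.44 (SE 0.26, adjusted p = 4.63e-06, edgeR) at day 3 and -2.36 (SE 0.25, adjusted p = 4.61e-06) at day 7. Its mean normalized count was 3951 with sham EVs, 722 at day 3 and 770 at day 7. Ifngr2, a chain of the interferon-γ receptor, changed by -1.44 and -1.61 (adjusted p = 0.000199 and 2.79e-05, edgeR), and with total-count scaling by -0.44 and -0.54, called at day 7 only (adjusted p = 0.0207). Irf1 was at 0.90 (SE 0.71, adjusted p = 0.295) and 1.07 (SE 0.67, adjusted p = 0.183), which did not pass, and with total-count scaling it passed at both days (adjusted p = 0.0335 and 0.0121).

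Among 26 genes of LPS and NF-κB signaling, 25 were tested. With 9 Gy EVs and housekeeping scaling, 2 were higher, 10 lower and 13 not called at day 3, and 0 were higher, 13 lower and 12 not called at day 7. Their median log2 change was -0.33 at day 3 and -0.39 at day 7, above the median of all tested genes. The split moved with the scaling in the same way as that over all tested genes given above, to 6 higher and 6 lower at day 3 and 7 higher and 6 lower at day 7 with TMM, and to 12 higher and 5 lower at both days with the total count. The 2 that were higher at day 3, named after their values were seen, were Irak4, a kinase downstream of TLR4, at 0.87 (adjusted p = 0.0117, edgeR), and Rela, the p65 subunit of NF-κB, at 0.55 (adjusted p = 0.0397). Neither passed at day 7 (0.33 and 0.24, adjusted p = 0.136 and 0.25). Il6 fell most, from a mean of 2443 normalized counts with sham EVs to 34.2 at day 3 and 37.4 at day 7 (log2 fold changes -6.10 and -6.02, adjusted p = 3.40e-08 and 1.43e-08, edgeR).

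Both interleukin-1 genes fell as well. Il1b went from 3987 normalized counts to 164 and 174 (log2 fold changes -4.53 and -4.52, adjusted p = 0.000643 and 0.000368, edgeR), and Il1a went from 1255 to 52.6 and 50.0 (-4.47 and -4.64, adjusted p = 0.000158 and 4.19e-05). Raw counts at day 3 were 9, 12 and 118 for Il1b and 5, 4 and 34 for Il1a, so low counts limit the size of these falls too. At both days replicate 3 made up most of each mean. Nfkb2, a subunit of NF-κB, changed by -2.30 and -2.06 (adjusted p = 4.11e-07 and 6.60e-07). Nfkbia, the gene of the inhibitor IκBα, changed by -0.89 and -0.94 (adjusted p = 0.000212 and 8.65e-05, edgeR), but with total-count scaling it was at 0.11 and 0.17 and was not called. Tnf was at -0.45 and -0.35 (adjusted p = 0.152 and 0.248) and did not pass, and with total-count scaling it was at 0.61 and 0.80 and passed at day 7 (adjusted p = 0.0247). Cxcl10 thus rose with 9 Gy EVs while Il6, Il1b and Il1a fell, with scaling to housekeeping genes, the median, TMM or the total count.

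The genes whose profile over the 15 samples was nearest to that of a member were found by the root mean square difference of centered log2 levels. Nearest to Cxcl10 was Ifih1 at 0.28, followed by the DNA damage kinase gene Atm at 0.39 and Ltb, which encodes lymphotoxin-β, at 0.46. Over all tested genes the median difference from Cxcl10 was 1.24, and Cxcl11 came 27th at 0.77. Ifih1 changed by 2.28 (SE 0.29) and 2.16 (SE 0.29) at days 3 and 7 after 9 Gy, close to the values of Cxcl10. Since Ifih1 was picked for its nearness to Cxcl10 over these same samples, this likeness follows from the choice and is no separate result.

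Nearest to Cxcl11 were Mapkapk2, which encodes a kinase downstream of p38, at 0.21, the integrin gene Itga4 at 0.23 and Mif, which encodes a macrophage cytokine, at 0.23. The median difference from Cxcl11 was 0.71, and Cxcl10 came 151st among the tested genes. The measure depends on the size of a gene's changes as well as on their pattern over the samples.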

How the data were processed

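Raw counts of 561 genes in 15 samples (5 groups of 3) were used as deposited. The authors made these counts with the nCounter Mouse Immunology panel and normalized them in nSolver for their own analysis; the deposited values are before that step, and the control probes are not analysed here. The lowest deposited count was 1. Samples were grouped by title.

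Each sample was scaled by the geometric mean of 14 housekeeping genes, 13 of which were also tested. The 269 genes that averaged 20 counts or more entered one edgeR 4.0.16 quasi-likelihood fit of all 5 groups in R 4.3.3, with a prior count of 0.125. Benjamini-Hochberg adjustment covered the 269 genes, and an adjusted p under 0.05 was called. The SE of a log2 fold change was its size divided by the square root of F. Profiles were compared as log2(normalized count + 1), centered per gene. Normalized counts are means and SDs of 3 samples. All irradiated groups were compared with the same sham samples.

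The members, the gene lists and the tests were chosen with earlier results of these data known. Apart from Irak4 and Rela, which were named after their values were seen, genes with test results were named by rule: the members, the 4 largest called changes of each list at each 9 Gy day, Ifnb1, Irf1, Nfkbia and Tnf, and the 3 nearest profiles of each tested member. One gene that the rule names is not reported here. Of the symbols, 545 of 561 matched the RefSeq table for GRCm38.p6 directly. The chi-square over degrees of freedom of same-group sample pairs ranged from 2.04 to 192, so no such pair agreed within sampling noise.

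Same-numbered samples deviated together across days, with correlations of 0.783, 0.397 and 0.556 at 2 Gy and 0.354, 0.413 and 0.733 at 9 Gy, although replicate 2 of day 7 was nearer to replicate 1 of 9 Gy day 3 (0.443) and to replicate 3 of 2 Gy day 3 (0.616) than the sample of their own number, so the replicate number was also used as a block. The labels do not say what the number stands for. In simulated counts of the comparison between sham EVs and 9 Gy day 7 EVs, with log2 changes of 1.5, all 104 changed genes among 274 were recovered with 5 false calls, and an unchanged comparison gave 0. The simulation kept the housekeeping genes unchanged, drew as many genes to rise as to fall, and had no deviating replicate. It therefore does not test the scaling or the effect of replicate 3. Alternatives included other scalings, filters, prior counts, DESeq2 1.42.0, the samples with conflicting day labels, and leaving out each sample.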

Additional observations from a re-analysis of the deposited data

How the results depend on the processing

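Against sham EVs, the direction of Cxcl10 and Cxcl11 with 9 Gy EVs was the same in all 31 alternatives, and the call of Cxcl10 held in all 31 at day 7 and in 29 at day 3. Some of these alternatives, such as leaving out a sample of a group not compared, left the estimates almost unchanged. The number of members called at day 3 fell from 2 to 0 with the samples of conflicting day label placed at day 7 or left out, where replicate 3 alone stands for day 3 and is assumed to vary like the other groups. In the comparison of 9 Gy with 2 Gy it fell to 1 in both cases, with a mean of at least 100 counts, and without replicate 3 of both 9 Gy groups. Leaving out each sample in turn gave 1 to 2 members called at day 3, at day 7 and between the doses, and the one lost was Cxcl11 each time. Between the doses it was lost in 10 of 15 such fits, in which its log2 fold change ran from 0.32 to 0.53. 

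With counts under 20 set to 20, the family difference at day 3 after 2 Gy went from -0.28 to 0.21. That at day 3 after 9 Gy, 1.21, became -0.60 with that floor, a value the floor itself fixes in this shallow group, and 0.13 with the samples of conflicting day label moved or left out; it ran from 0.80 to 1.76 without each sample in turn. Using only members with a mean of at least 20 counts was not possible, since no CXCR2 ligand passed. The changes between days reversed in places, none past the threshold. After 9 Gy, Cxcl10 became 1.24 when those samples were moved to day 7, 0.97 when they were omitted, 0.13 without replicate 1 of day 3 and 0.10 without replicate 3 of day 7, in a leave-one-out range of -0.60 to 0.13. Cxcl11 became 0.056 with total-count scaling, 0.040 when those samples were moved to day 7 and 0.022 when they were omitted. After 2 Gy, the leave-one-out range was -0.12 to 0.086 for Cxcl10, with the highest value without replicate 1 of day 7, and -0.091 to 0.34 for Cxcl11, with the lowest value without replicate 1 of day 3. The cause was not tested.

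With the replicate number as a block, no call of a member changed. Between days 7 and 3 after 9 Gy the blocked log2 change of Cxcl10 was -0.21 (adjusted p = 0.434, edgeR) with only the groups compared in the fit, and after 2 Gy that of Cxcl11 was 0.18 (adjusted p = 0.131). Depth limits the 9 Gy day 3 group most, where 3 counts are worth 9.91 to 17.8 normalized counts.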
